A study of Mus musculus with 20 samples.

Results

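Cd74, H2-Aa, H2-Ab1, H2-Eb1, Lyz2, C1qa, C1qb, C1qc, Ptprc and Adgre1 are markers of macrophages and of antigen presenting cells. They were followed in 20 samples of mural granulosa cells (GCs), which surround the fluid-filled cavity of the follicle and produce estradiol. The genes were taken by name, and all 10 were found among the 55487 gene identifiers of the count tables. The GCs came from adult females of the Dummerstorf lines: FL1, selected over many generations for high fertility, and ctrl, its unselected control line (ctrl mice). The labels name no transgene and no treatment in either line. Each line was sampled in estrus and in diestrus, as read from the cells of the vaginal smear, which gave 4 groups (ctrl estrus, FL1 estrus, ctrl diestrus and FL1 diestrus) of 5 mice each, with 1 library per mouse. The cells were drawn from the largest follicles of opened ovaries without a sort, so that cells other than GCs were not removed by any marker.

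Macrophages are the most common leukocytes of the ovary and are known to sit in the stroma, in the theca, in atretic follicles and in the corpus luteum, where they engulf dying cells. An antigen presenting cell cuts up proteins that it has taken in and shows the peptides on MHC class II, a pair of an alpha and a beta chain. In the mouse, H2-Aa and H2-Ab1 encode the chains of the I-A molecule, H2-Eb1 encodes the beta chain of I-E, and Cd74 encodes the invariant chain, which fills the peptide groove until the molecule reaches the endosome. Lyz2 encodes lysozyme M of macrophages and neutrophils. C1qa, C1qb and C1qc encode the chains of C1q, the recognition part of the classical complement pathway, which macrophages produce. Ptprc encodes CD45, the phosphatase on the surface of all leukocytes, and Adgre1 encodes F4/80, the antigen used to stain mouse macrophages.

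The libraries held 5446576 to 8257041 reads on genes, with a median of 6457585.5. These were 48.9 to 58.4% of the counted reads, while 23.2 to 32.8% mapped to more than one place and were assigned to no gene. Levels are given as counts per 1000000 reads on genes (CPM), scaled by TMM factors. The libraries were made from the 3′ ends of transcripts, so that a count does not grow with the length of a transcript. The label GC was checked against 12 granulosa markers, which summed to between 8680 and 25100 CPM in each mouse, while the 10 stromal markers summed to between 199 and 2310 CPM and the 5 luteal markers to between 149 and 4100 CPM. Inha, which encodes the inhibin alpha subunit, ranged from 2728 to 7884 CPM. Amh, the anti-Müllerian hormone of small follicles, was low, with 7.70 ± 6.51 CPM in ctrl estrus and 0.992 ± 1.26 CPM in ctrl diestrus (SD, n = 5). All 12 granulosa markers passed the filter on low counts, but so did all 10 stromal, 7 oocyte and 5 luteal markers, so that passing it does not tell the cell types apart.

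The 10 markers were found at levels far below that of Inha. Over the 20 mice, Lyz2 had the highest mean level with 22.7 CPM, followed by H2-Aa (15.5 CPM), H2-Eb1 (11.3 CPM), Cd74 (10.5 CPM), C1qc (8.57 CPM), H2-Ab1 (7.15 CPM), C1qa (6.87 CPM), C1qb (3.07 CPM), Ptprc (2.6 CPM) and Adgre1 (2.37 CPM). Neighbours in this order differed by less than their spread over mice. Of the genes that passed the filter, 53.1% had a lower mean level than Lyz2 and 16.0% a lower one than Adgre1. The sum of all 10 markers stayed between 24.1 and 187.9 CPM in each mouse and was therefore far below Inha alone.

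The promoters are shown for the members whose values are compared most often, H2-Aa, H2-Eb1 and Lyz2, and for C1qb and C1qc, which lie side by side in the genome. Of the 10 members, 6 had an entry (H2-Aa, H2-Eb1, Lyz2, C1qb, C1qc and Ptprc). Each sequence is the RefSeq sequence of build GRCm38.p6 from 250 bases before to 50 bases after the start of the gene, written 5′ to 3′ on the strand of the gene. H2-Aa is from chr17:34287774-34288073 on the minus strand, H2-Eb1 from chr17:34305617-34305916 on the plus strand, Lyz2 from chr10:117282223-117282522, C1qb from chr4:136886151-136886450 and C1qc from chr4:136892865-136893164, the latter 3 on the minus strand. Capitals mark GATTGG, an inverted CCAAT, which is the core of the Y box of class II promoters, TGACGTCA, which is found in X2 boxes and in cAMP response elements, and AGGAAGT, a form of the site of PU.1 and other ETS factors. Both strands were searched, so that CCAATC and ACTTCCT are marked as well, and no marked letters overlapped.
H2-Aa: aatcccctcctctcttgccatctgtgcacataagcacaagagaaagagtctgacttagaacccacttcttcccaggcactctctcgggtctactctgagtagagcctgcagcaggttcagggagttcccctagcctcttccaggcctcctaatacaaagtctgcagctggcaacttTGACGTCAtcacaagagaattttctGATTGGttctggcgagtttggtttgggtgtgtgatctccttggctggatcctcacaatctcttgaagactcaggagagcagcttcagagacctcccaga
H2-Eb1: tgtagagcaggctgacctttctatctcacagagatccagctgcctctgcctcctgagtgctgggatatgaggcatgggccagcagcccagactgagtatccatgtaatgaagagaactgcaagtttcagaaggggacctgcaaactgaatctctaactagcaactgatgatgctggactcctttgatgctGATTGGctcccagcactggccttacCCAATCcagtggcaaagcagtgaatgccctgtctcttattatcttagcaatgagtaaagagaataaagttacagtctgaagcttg
Lyz2: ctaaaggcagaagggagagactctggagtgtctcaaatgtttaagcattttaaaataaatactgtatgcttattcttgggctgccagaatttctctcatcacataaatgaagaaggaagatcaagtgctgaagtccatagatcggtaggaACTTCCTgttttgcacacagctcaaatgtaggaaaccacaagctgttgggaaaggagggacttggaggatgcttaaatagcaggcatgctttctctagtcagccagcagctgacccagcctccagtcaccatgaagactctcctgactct
C1qb: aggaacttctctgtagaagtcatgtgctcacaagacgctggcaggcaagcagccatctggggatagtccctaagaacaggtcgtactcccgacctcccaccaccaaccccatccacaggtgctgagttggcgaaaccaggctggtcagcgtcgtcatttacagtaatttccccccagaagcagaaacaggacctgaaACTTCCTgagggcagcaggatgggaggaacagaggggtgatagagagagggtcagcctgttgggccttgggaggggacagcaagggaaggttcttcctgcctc
C1qc: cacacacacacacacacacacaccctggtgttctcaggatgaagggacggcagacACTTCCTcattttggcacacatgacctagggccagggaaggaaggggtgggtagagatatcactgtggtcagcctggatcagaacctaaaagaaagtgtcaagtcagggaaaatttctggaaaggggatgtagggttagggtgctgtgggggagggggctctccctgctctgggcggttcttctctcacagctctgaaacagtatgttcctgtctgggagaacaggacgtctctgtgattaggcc

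GATTGG was found in the promoters of both class II members with an entry, H2-Aa and H2-Eb1, and in none of the other 4 members. In H2-Aa it began 49 bases before the start, and in H2-Eb1 it began 60 bases before the start, with a second match on the other strand 35 bases before it. TGACGTCA was found in H2-Aa only, 74 bases before the start. AGGAAGT was found in Lyz2, C1qb, C1qc and Ptprc and in neither class II promoter. Among all 32851 promoters of the table, 16.1% held GATTGG, 1.79% held TGACGTCA and 9.35% held AGGAAGT. The motifs were chosen after the sequences had been read, and a match describes the letters only, not the binding of a factor.

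H2-Aa and H2-Eb1, which share the Y box letters, lie together with H2-Ab1 in the class II region of chromosome 17. H2-Ab1 (ENSMUSG00000073421) spans chr17:34257689-34269419 on the plus strand, H2-Aa (ENSMUSG00000036594) spans chr17:34282744-34287823 on the minus strand and H2-Eb1 (ENSMUSG00000060586) spans chr17:34305867-34316674 on the plus strand of GRCm38. Cd74 (ENSMUSG00000024610) spans chr18:60803848-60812652. The last 500 bases of an annotated H2-Ab1 transcript shared 94.6% identity over 168 bases with H2-Eb1. H2-Eb1 is also overlapped by Gm20513 on the other strand, and whether reads were counted by strand is not given in the sources used here.

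Cd74 had a higher level in every ctrl mouse in estrus than in any ctrl mouse in diestrus, where its level was at most 4.16 CPM and 2 of the 5 mice had 0 or 1 count. Its levels were 4.35, 14.1, 9.70, 6.09 and 20.7 CPM in ctrl estrus and 17.9, 10.2, 14.5, 17.3 and 36.7 CPM in FL1 estrus. In diestrus they were 0, 4.16, 3.34, 0.179 and 2.80 CPM in ctrl mice and 12.3, 16.6, 2.44, 7.79 and 8.64 CPM in FL1 mice. In diestrus 4 of the 5 FL1 mice lay above all ctrl mice, while the lines overlapped in both stages.

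H2-Aa showed 1 very low and 1 high mouse in ctrl diestrus. The ctrl mice had 8.70, 17.7, 3.70, 14.3 and 21.7 CPM in estrus and 0.179, 30.1, 7.63, 2.86 and 9.20 CPM in diestrus. The FL1 mice had 15.2, 6.27, 25.9, 40.1 and 27.0 CPM in estrus and 30.1, 25.8, 5.53, 6.77 and 11.7 CPM in diestrus. All 4 groups overlapped.

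H2-Ab1, the partner chain of H2-Aa, separated the lines in estrus. In estrus its levels were 2.75, 6.36, 4.51, 0 and 4.31 CPM in ctrl mice and 15.7, 9.53, 13.8, 8.73 and 10.2 CPM in FL1 mice. Every FL1 mouse lay above every ctrl mouse in estrus. In diestrus the ctrl mice had 6.97, 4.30, 2.68, 0.893 and 5.20 CPM and the FL1 mice had 23.1, 12.5, 0.975, 5.59 and 4.74 CPM, and the lines overlapped. H2-Ab1 was the only member of the 10 whose lines did not overlap in estrus, and 1.78% of the 14938 genes that passed the filter over all samples did so with FL1 mice higher.

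H2-Eb1 showed no separation of the groups. The ctrl mice had 1.30, 9.31, 11.6, 12 and 11 CPM in estrus and 16.1, 16.2, 9.37, 10.5 and 3.20 CPM in diestrus. The FL1 mice had 28.1, 13.4, 6.92, 8.45 and 14.0 CPM in estrus and 24.9, 9.54, 12, 6.60 and 2.03 CPM in diestrus. The groups overlapped throughout, and the means of ctrl and FL1 mice in diestrus were 11.1 ± 5.41 and 11 ± 8.58 CPM (SD, n = 5).

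**Figure D1:**
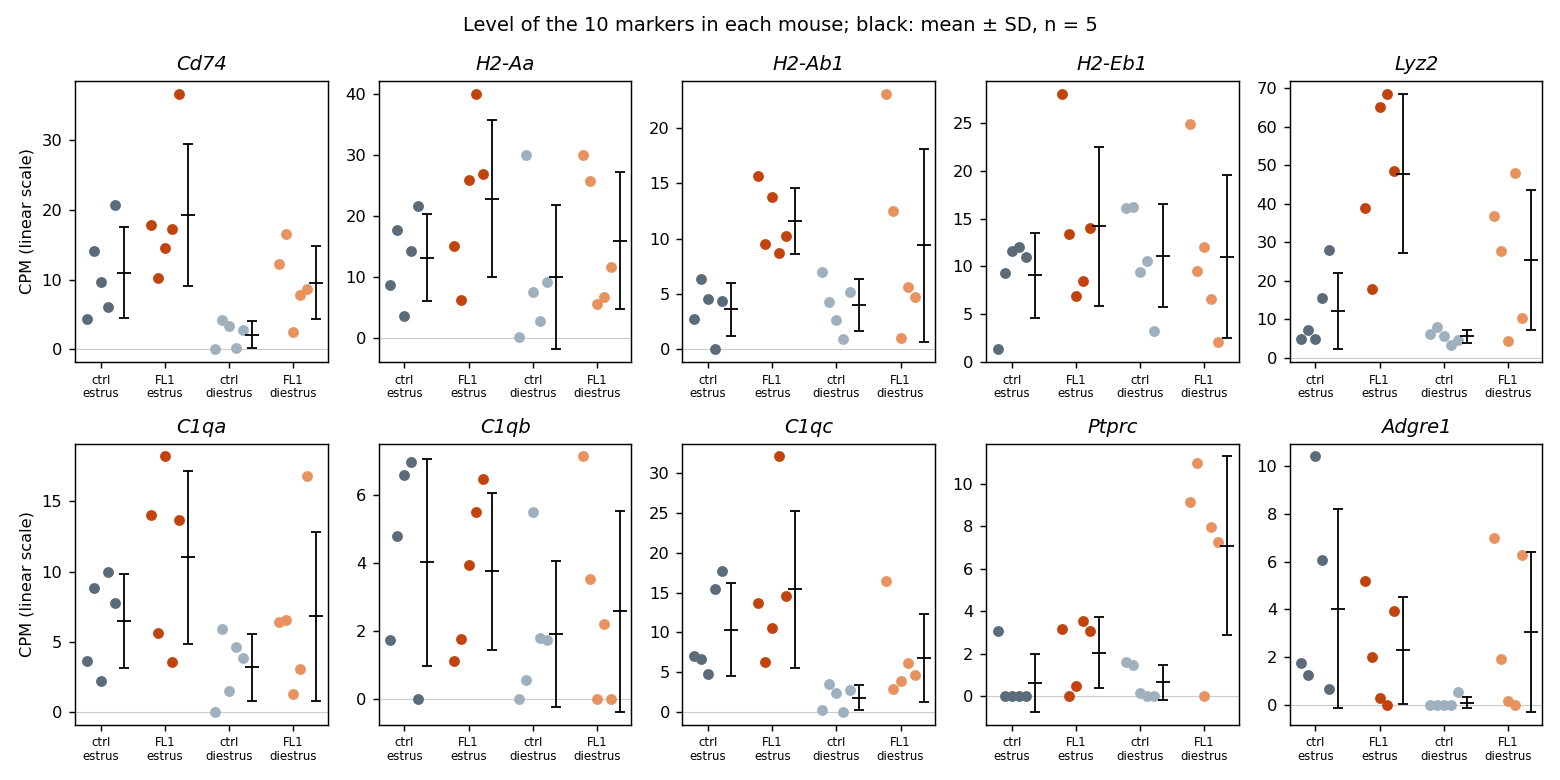
Level of each of the 10 markers in CPM (vertical axis, linear scale) in each mouse of the 4 groups (points, 5 per group), with the mean and SD of the group in black. Lyz2 reached 68.6 CPM in FL1 estrus and stayed at or below 8.05 CPM in ctrl diestrus, and H2-Ab1 was the member whose lines did not overlap in estrus.

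Lyz2 was the marker with the clearest difference between the lines. The gene (ENSMUSG00000069516) spans chr10:117277331-117282321 on the minus strand. In estrus the ctrl mice had 4.93, 7.29, 4.74, 15.6 and 27.9 CPM and the FL1 mice had 39.0, 17.9, 65.1, 68.6 and 48.6 CPM. In diestrus the ctrl mice had 6.08, 8.05, 5.49, 3.21 and 4.67 CPM and the FL1 mice had 36.8, 27.7, 4.23, 47.9 and 10.3 CPM. In each stage 4 of the 5 FL1 mice lay above all ctrl mice, and the fifth lay within their range. The group means were 12.1 ± 9.89 CPM in ctrl estrus, 47.8 ± 20.6 CPM in FL1 estrus, 5.50 ± 1.79 CPM in ctrl diestrus and 25.4 ± 18.2 CPM in FL1 diestrus (SD, n = 5). Lyz1, the gut lysozyme gene whose transcript end is 97% identical to that of Lyz2 over 497 bases, had 53 counts in the whole series, against 2964 of Lyz2, and reads that fit both genes equally were assigned to neither.

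The C1q genes lie side by side on chromosome 4, C1qb (ENSMUSG00000036905) at chr4:136880129-136886187, C1qc (ENSMUSG00000036896) at chr4:136889804-136893065 and C1qa (ENSMUSG00000036887) at chr4:136895917-136898803, all on the minus strand. C1qc had 6.96, 6.67, 4.74, 15.4 and 17.7 CPM in ctrl estrus and 0.179, 3.49, 2.41, 0 and 2.80 CPM in ctrl diestrus, so that the stages did not overlap. In FL1 mice C1qc had 13.7, 6.27, 10.5, 32.1 and 14.5 CPM in estrus and 16.5, 2.86, 3.90, 6.09 and 4.57 CPM in diestrus, which overlapped. In diestrus 4 of the 5 FL1 mice lay above all ctrl mice in C1qc.

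C1qa ranged from 2.20 to 9.95 CPM with a median of 7.75 CPM in ctrl estrus and from 3.52 to 18.2 CPM with a median of 13.7 CPM in FL1 estrus. In diestrus it ranged from 0 to 5.91 CPM (median 3.87 CPM) in ctrl mice and from 1.30 to 16.8 CPM (median 6.37 CPM) in FL1 mice. C1qb was the weakest of the C1q genes, with medians of 4.81 CPM in ctrl estrus, 3.93 CPM in FL1 estrus, 1.73 CPM in ctrl diestrus and 2.20 CPM in FL1 diestrus. It was at 0 in 4 of the 20 mice, 1 in ctrl estrus, 1 in ctrl diestrus and 2 in FL1 diestrus.

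Ptprc (ENSMUSG00000026395, chr1:138062861-138175708) was found mainly in FL1 mice in diestrus. Its counts were 21, 0, 0, 0 and 0 in ctrl estrus, 20, 0, 3, 25 and 18 in FL1 estrus, 9, 11, 1, 0 and 0 in ctrl diestrus and 59, 81, 0, 47 and 43 in FL1 diestrus. In diestrus 4 of 5 FL1 mice lay above all ctrl mice, and the fifth had no count. A count of 0 allows up to 3 counts in a library of the same depth. A130071D04Rik overlaps Ptprc on the same strand.

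Adgre1 (ENSMUSG00000004730, chr17:57358691-57483527) had 12, 8, 90, 41 and 4 counts in ctrl estrus and 0, 0, 0, 0 and 4 counts in ctrl diestrus. In FL1 mice it had 33, 16, 2, 0 and 23 counts in estrus and 45, 14, 1, 0 and 37 counts in diestrus. In ctrl mice all 5 levels in estrus lay above those in diestrus, whereas the stages overlapped in FL1 mice.

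Counts were low enough to limit these genes in single libraries. In replicate 1 of ctrl diestrus 6 of the 10 members had 3 counts or fewer, in replicate 4 of that group 4 had, and in replicate 3 of FL1 diestrus 3 had. The coefficient of variation within a group reached 224% for Ptprc in ctrl estrus and Adgre1 in ctrl diestrus, while its median over the 14938 genes that passed the filter was 42.2 to 43.2% in the 4 groups.

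The first question of the design was whether GCs of FL1 mice differ from those of ctrl mice within a stage of the cycle. In estrus no member passed the test of edgeR adjusted over all genes. Of the 9 members tested (Ptprc had too few counts), 7 had a positive log2 fold change and the median was 0.76, against 0.0054 over all 13007 genes tested. Some members varied together across mice, so that the signs of members, here and below, are not independent of each other. None was called at an adjusted p of 0.05 or less, 1 had an unadjusted p below 0.05, and 0.769% of all genes were called. An unadjusted p below 0.05 was found for 10.7% of all genes, so that 1 of 9 members was near the background. Lyz2 had a log2 fold change of 1.98 ± 0.49 (SE), which is 3.95-fold, with an adjusted p of 0.0668. H2-Ab1 followed with 1.68 ± 0.81 (adjusted p = 0.470), Cd74 with 0.81 ± 0.49 (adjusted p = 0.609) and H2-Aa with 0.79 ± 0.51 (adjusted p = 0.643). The values of C1qb (-0.11 ± 1.08) and Adgre1 (-0.82 ± 1.23) were negative, with errors that exceeded them. DESeq2 (adjusted p = 0.0063) and limma-voom with sample weights (adjusted p = 0.048) each called Lyz2 and no other member. The call of Lyz2 in edgeR turned on single mice: without replicate 5 of ctrl estrus its adjusted p was 0.0135, and without replicate 2 of FL1 estrus it was 0.0406.

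In diestrus all 9 members tested had a positive log2 fold change in edgeR, and again none was called. The sign did not hold for H2-Eb1, which turned in 9 of 17 alternatives, and for C1qb, which turned in 3 (limma-voom gave -0.22 and -1.01). Adgre1 had too few counts for the test. The median was 1.24, against 0.0113 over all 12886 genes, of which 0.248% were called and 51.3% were positive. Of the members, 3 had an unadjusted p below 0.05, against 5.56% of all genes. These were Lyz2 with 2.22 ± 0.57 (SE, adjusted p = 0.203), Cd74 with 2.19 ± 0.99 (adjusted p = 0.879) and Ptprc with 3.45 ± 1.37 (adjusted p = 0.773). Ptprc passed the filter mainly through FL1 mice, with up to 81 counts against at most 11 in ctrl mice. Its sign and its place among the 3 are therefore a description only. C1qc had 1.93 ± 1.06, H2-Ab1 1.24 ± 0.82, C1qa 1.10 ± 1.01 and H2-Aa 0.70 ± 0.80, all with adjusted p-values above 0.9. H2-Eb1 had 0.0026 ± 0.62, and its interval of 2 SE ran from -1.23 to 1.23. DESeq2 called Lyz2 (adjusted p = 0.0187), and limma-voom called no member.

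With both stages in one model and stage as a covariate, Lyz2 was stronger expressed in GCs of FL1 mice by 2.09 ± 0.39 on the log2 scale (SE), or 4.27-fold, with an adjusted p of 0.00235. It was the only member called of the 10 tested, while 1.17% of all 13857 genes were called. DESeq2 and limma-voom called it too, and it was called in each of the 20 fits that left out 1 mouse, with adjusted p-values from 5.17e-04 to 0.00689. All 10 members had a positive log2 fold change in edgeR, and the median was 1.34, against 0.0088 over all genes, of which 51.1% were positive. The sign of C1qb turned in 2 of 26 alternatives (-0.16 with limma-voom and -0.24 without replicate 1 of FL1 diestrus). Of the members, 5 had an unadjusted p below 0.05, against 11.3% of all genes. DESeq2 gave no adjusted p for C1qb, Ptprc and Adgre1. Cd74 had 1.47 ± 0.53 (adjusted p = 0.218), H2-Ab1 1.46 ± 0.58 (adjusted p = 0.296), C1qc 1.23 ± 0.56 (adjusted p = 0.394) and Ptprc 2.58 ± 1.18 (adjusted p = 0.40). Here, too, Ptprc passed the filter mainly through FL1 mice. The smallest values belonged to H2-Eb1 (0.32 ± 0.43) and C1qb (0.16 ± 0.91). These samples are bulk tissue, in which fewer cells of a type and less RNA per cell cannot be told apart.

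**Figure D2:**
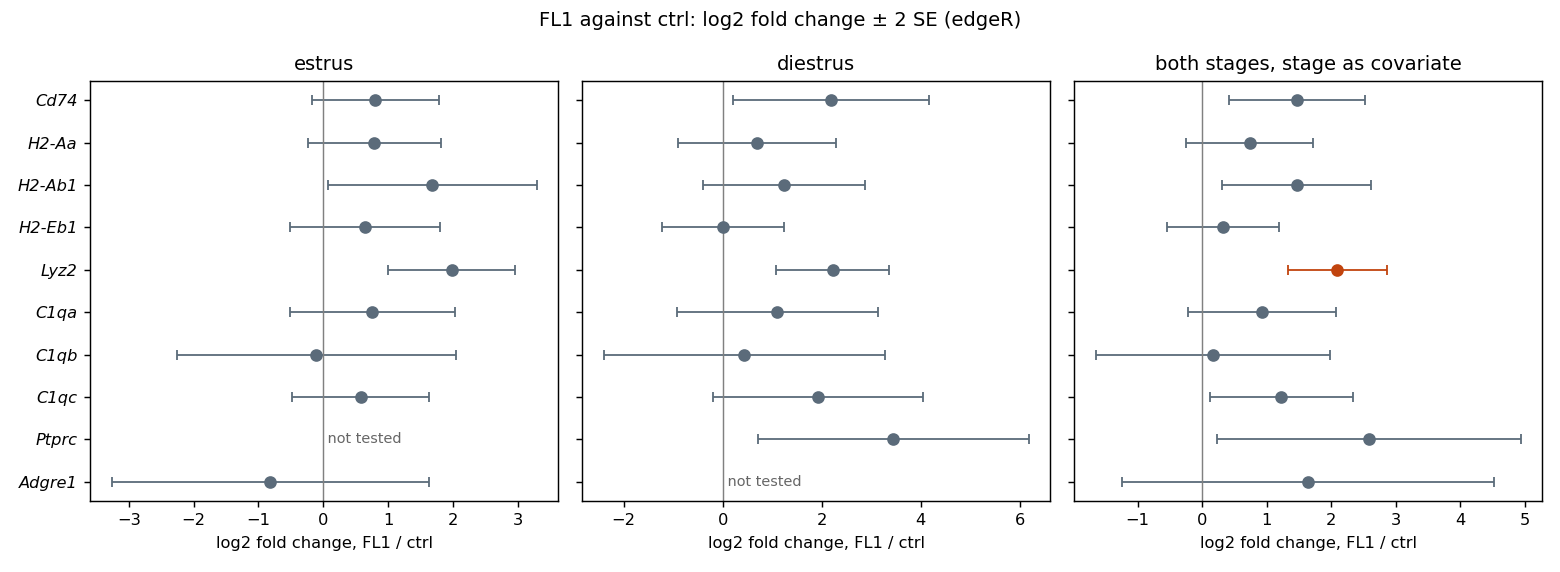
Log2 fold change between FL1 and ctrl mice (horizontal axis) of the 10 markers in estrus, in diestrus and over both stages, with bars of 2 SE from edgeR and the called value in orange. Lyz2 is called over both stages (2.09), and its bars exclude 0 in each stage as well.

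The second question was whether the markers change with the cycle. In ctrl mice, 6 of the 8 members tested were lower in diestrus than in estrus, with a median log2 fold change of -1.04, against 0.0041 over all 12850 genes tested. No member was called by edgeR or limma-voom, and 1.36% of all genes were called by edgeR. In edgeR 2 members had an unadjusted p below 0.05, against 11.8% of all genes. DESeq2 gave an adjusted p for only 2 of the 8 members, H2-Aa and H2-Eb1, and called neither, while the other 6, Cd74 and C1qc among them, were left without one. C1qc had -2.52 ± 1.00 (SE, adjusted p = 0.303) and Cd74 had -2.37 ± 0.98 (adjusted p = 0.332). Lyz2 had -1.14 ± 0.64 (adjusted p = 0.553). The stages did not overlap for 3 of the 10 members, Cd74, C1qc and Adgre1, each with estrus higher, whereas this held for 1.65% of the 14938 genes. Adgre1 and Ptprc had too few counts for the test in ctrl mice.

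In FL1 mice, 8 of the 10 members were lower in diestrus, with a median log2 fold change of -0.52, against 0.0118 over all 13114 genes. None was called or had an unadjusted p below 0.05 in edgeR, where 0.221% of all genes were called and 9.48% had an unadjusted p below 0.05. Limma-voom called none, and DESeq2 called none of the 8 members for which it gave an adjusted p. C1qc had -1.18 ± 0.58 (adjusted p = 0.562), Cd74 -1.01 ± 0.50 (adjusted p = 0.559) and Lyz2 -0.91 ± 0.50 (adjusted p = 0.629). Ptprc (1.79 ± 1.17) and Adgre1 (0.43 ± 1.37) were the members with a positive value.

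**Figure D3:**
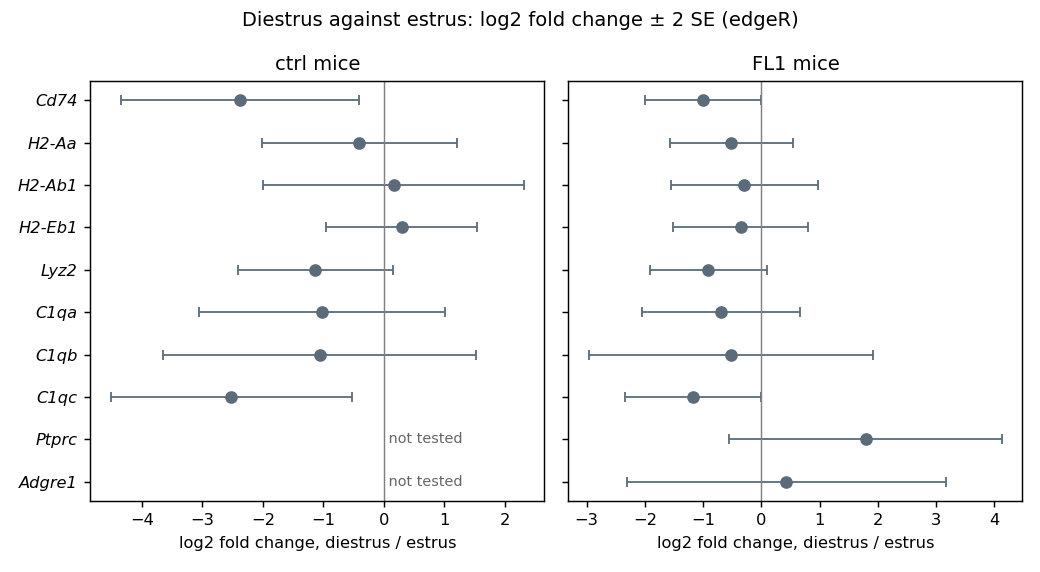
Log2 fold change between diestrus and estrus (horizontal axis) of the 10 markers in ctrl mice and in FL1 mice, with bars of 2 SE from edgeR. C1qc (-2.52) and Cd74 (-2.37) had the lowest values in ctrl mice, and no member was called in either line.

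Whether the line difference itself differed between the stages was tested by an interaction term. None of the 10 members was called by edgeR, DESeq2 or limma-voom, 1 had an unadjusted p below 0.05 in edgeR, and 0% of all 14938 genes were called, of which 4.75% had an unadjusted p below 0.05. That member was Adgre1, with a log2 value of 5.39 ± 2.17 (SE, adjusted p = 0.988), which rests on a group, ctrl diestrus, that held 4 counts in all. For Lyz2 the interaction was 0.23 ± 0.75 with an interval of 2 SE from -1.27 to 1.72, so that a difference of this size between the stages was not detectable here.

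Across the 20 mice some of the members varied together. On log2 CPM, 43 of the 45 pairs of members had a positive Pearson r, and 9 pairs passed the permutation test after adjustment over the 45 pairs. With the mean of each group removed, 40 pairs were positive and 1 passed. This pair was Cd74 and H2-Aa, with r = 0.81 (permutation p = 6e-05, adjusted p = 0.00135) and Spearman's rho = 0.681 (permutation p = 0.00124, adjusted p = 0.00945). Without the group means r was 0.804 (permutation p = 2.7e-04, adjusted p = 0.0121), and without the 2 mice farthest from the median of Cd74 it was 0.557. Cd74 and C1qc had r = 0.87 over all mice (permutation p = 1e-05, adjusted p = 4.5e-04, the smallest the permutations can give before adjustment) and rho = 0.749 (permutation p = 3.5e-04, adjusted p = 0.00787), with r = 0.641 without the 2 farthest mice. Within groups its r was 0.677 (adjusted p = 0.147).

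H2-Aa and H2-Ab1, whose products form 1 molecule, had r = 0.284 over all mice (permutation p = 0.213, adjusted p = 0.429) and rho = 0.471 (permutation p = 0.0375, adjusted p = 0.113), with r = 0.395 without the 2 farthest mice. H2-Aa and H2-Eb1, whose promoters share the Y box letters, had r = 0.0179 (permutation p = 0.939, adjusted p = 0.939) and rho = 0.0917 (permutation p = 0.702, adjusted p = 0.770), and r = 0.263 without the 2 farthest mice. Libraries with few counts add noise to every pair, so that a low r does not show independent control.

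**Figure D4:**
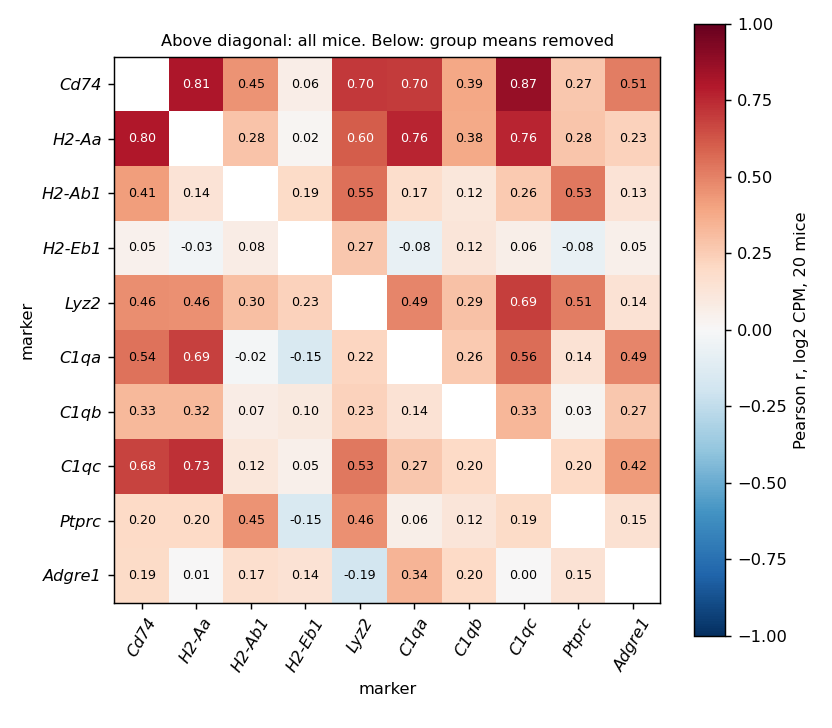
Pearson r of log2 CPM between the 10 markers over the 20 mice, above the diagonal for all mice and below it with the group means removed, in color from -1 (blue) to 1 (red). Cd74, H2-Aa and C1qc form the darkest block, and the values of H2-Eb1 lie between -0.0776 and 0.267 over all mice.

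**Figure D5:**
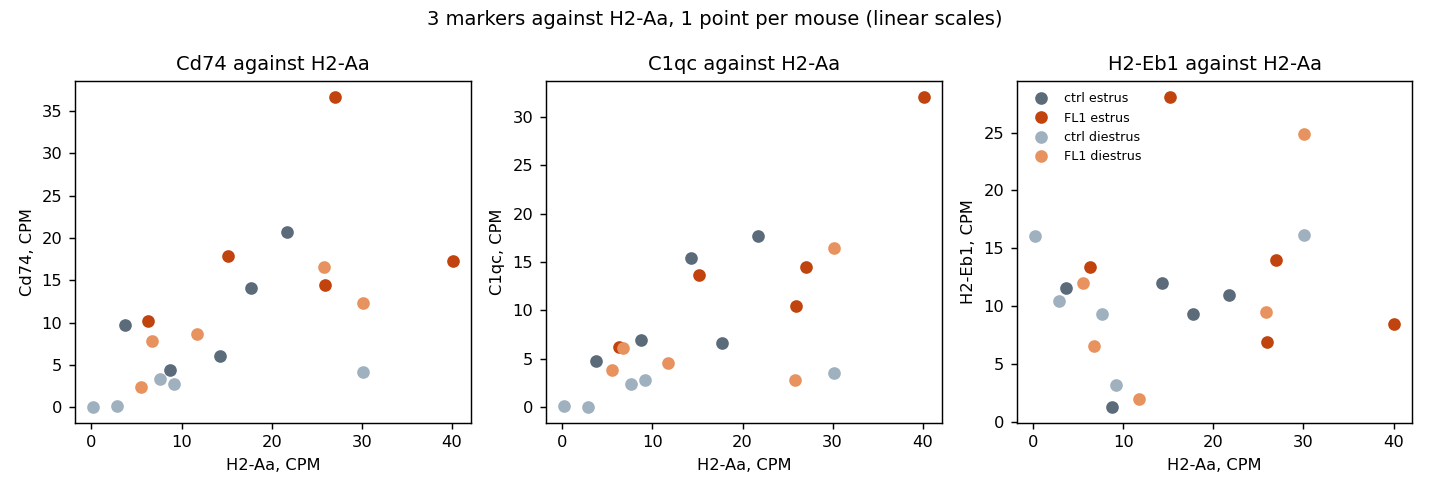
Level of Cd74, C1qc and H2-Eb1 (vertical axes) against that of H2-Aa (horizontal axes) in CPM on linear scales, with 1 point per mouse in the color of its group. Cd74 and C1qc follow H2-Aa (r = 0.81 and 0.761 on log2 CPM), whereas H2-Eb1 shows no trend (r = 0.0179).

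The other genes of the class II pathway did not follow the class II members as a list. Of its 15 genes 14 were found and 9 were tested over both stages, of which 2 had a positive log2 fold change, with a median of -0.12. None was called by edgeR, and 2 had an unadjusted p below 0.05. Over both stages, 11.3% of all genes had an unadjusted p below 0.05, against which the counts of this list and of those that follow are to be read. The genes with the highest level were Ctsl (cathepsin L, -0.15 ± 0.17), Ifi30 (the lysosomal thiol reductase GILT, -0.12 ± 0.20) and Lgmn (legumain, 0.67 ± 0.30, adjusted p = 0.372). Ctss encodes cathepsin S, the protease that removes the invariant chain in macrophages and B cells, and was looked at after its values were seen. It had 11.8 ± 7.39 CPM in ctrl estrus and 43.5 ± 10.8 CPM in FL1 estrus (SD, n = 5), 4.24 ± 4.02 CPM in ctrl diestrus and 31.3 ± 24.9 CPM in FL1 diestrus. Its log2 fold change over both stages was 2.37 ± 0.61 with an adjusted p of 0.0504 in edgeR. In this comparison DESeq2 called it and limma-voom did not. Ciita, which encodes the master activator of class II transcription, was at 0 in 19 of the 20 mice.

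Interferon gamma is the classical inducer of class II and of the invariant chain. Ifng was at 0 in all 20 mice. Of the 16 genes of its signal 14 were tested over both stages, 10 had a positive value, and none was called or had an unadjusted p below 0.05, with a median of 0.20. Limma-voom called none of them in this comparison, and DESeq2 called none of the 13 for which it gave an adjusted p. Jak1, a kinase of the receptor, was at 1196 ± 172 CPM in ctrl estrus and at 1173 ± 225 CPM in FL1 estrus (SD, n = 5). Irf1, a transcription factor of the response, was at 46.6 ± 15.3 CPM in ctrl estrus and at 43.6 ± 3.14 CPM in FL1 estrus (SD, n = 5). Gbp2, a GTPase that interferon gamma induces, was looked at after its values were seen. It had 16.5 ± 8.83 CPM in ctrl estrus, 48.9 ± 26.3 CPM in FL1 estrus, 10.3 ± 5.91 CPM in ctrl diestrus and 9.35 ± 8.13 CPM in FL1 diestrus (SD, n = 5). In estrus its log2 fold change was 1.56 ± 0.44 (SE, adjusted p = 0.115 in edgeR), and DESeq2 called it higher in FL1 mice. Between the stages in FL1 mice it was -2.38 ± 0.55 (adjusted p = 0.0833 in edgeR), and DESeq2 and limma-voom called it lower in diestrus. Over both stages it was 0.73 ± 0.49.

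Of the early classical complement genes that act after C1q, all 4 tested had a positive log2 fold change over both stages (median 0.58) and none was called, with 1 unadjusted p below 0.05. C2, which encodes the part that C1s cleaves, had 1.12 ± 0.36 (adjusted p = 0.151). Serping1, the inhibitor of C1, had 43.2 ± 19.4 CPM in ctrl estrus and 46.7 ± 11.2 CPM in FL1 estrus (SD, n = 5).

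The remaining macrophage markers had mostly positive values as well, without a call. Of 23 genes 16 were tested over both stages, 14 had a positive log2 fold change and 5 an unadjusted p below 0.05, with a median of 1.32. A gene near 0 in ctrl mice could pass the filter through FL1 mice, so that these counts are a description only. EdgeR and limma-voom called none, and DESeq2 called none of the 9 for which it gave an adjusted p. Mertk, a receptor for dying cells that had the highest level of the list, had 0.08 ± 0.34, while Cx3cr1, the fractalkine receptor, had 1.67 ± 0.64 (adjusted p = 0.265) and Tyrobp, a signal adaptor of myeloid cells, had 13.8 ± 4.05 CPM in FL1 estrus against 4.75 ± 3.67 CPM in ctrl estrus (SD, n = 5). The summed level of the list was 31.2 to 73.9 CPM in ctrl estrus and 90 to 126.0 CPM in FL1 estrus, which did not overlap, and had medians of 49.5 CPM in ctrl diestrus and 70.1 CPM in FL1 diestrus, where the lines overlapped. How often sums of 23 genes do not overlap was not tested. Of the 12 genes tested in estrus 0 had an unadjusted p below 0.05 in edgeR and 3 had in DESeq2. Among the other markers of all leukocytes, 9 of 9 tested had a positive value (median 1.55), 2 had an unadjusted p below 0.05 and none was called. Cd53 and Inpp5d had the largest log2 fold changes of the 9. The paper already reports both as stronger expressed in the selected line in diestrus, from the same libraries. This list, too, was chosen with earlier results known and went through the same filter, so that its counts are a description only. Cyba (0.45 ± 0.23), Lcp1 (1.11 ± 0.66) and Cybb (1.97 ± 0.79, adjusted p = 0.305) had the highest levels. Of the 12 growth factors and chemokines for macrophages, 5 were tested, 2 were positive, 1 had an unadjusted p below 0.05 and none was called. Cxcl12, which attracts leukocytes and was the highest of them after Mif and Cx3cl1, had 0.83 ± 0.30 (adjusted p = 0.223), and Csf2 was at 0 in all mice.

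Markers of other leukocytes were few. Of the 8 dendritic cell markers, which share class II with macrophages, 1 was tested (Zbtb46, -0.19 ± 0.54), and Flt3 was at 0 throughout. Among the B cell markers Cd79a and Cd79b were at 0 in all mice, whereas Igkc, the kappa light chain that plasma cells produce, reached 22.2 CPM in FL1 estrus and 2.66 CPM in ctrl estrus (log2 fold change 4.78 ± 1.41 over both stages, adjusted p = 0.103). The 10 T and NK cell markers summed to at most 10.1 CPM in a mouse, the 9 neutrophil markers to at most 5.07 CPM and the 5 mast cell markers to at most 2.64 CPM. The neutrophil genes Retnlg, Ly6g and Mpo and the mast cell genes Mcpt4 and Cma1 were at 0 in all mice.

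Of the 5 luteal markers 3 were called over both stages, against 1.17% of all genes. All 5 were positive (median 1.82) with an unadjusted p below 0.05. The paper already names most of these genes as stronger expressed in the selected line, from the same libraries. The list was chosen with earlier results of these data known, so that its calls and signs are a description only. Lhcgr, a member of the list, is discussed by the paper as a gene of GCs, so that the list does not separate luteal cells from GCs. The genes called were Akr1c18, which inactivates progesterone, with 2.83 ± 0.51 (adjusted p = 0.00185), Ptgfr, the receptor of prostaglandin F2 alpha, with 1.97 ± 0.39 (adjusted p = 0.00634) and Sfrp4, a Wnt inhibitor, with 1.76 ± 0.44 (adjusted p = 0.0419). The summed luteal level was 149 to 429 CPM in ctrl estrus and 1130 to 4100 CPM in FL1 estrus, and 239 to 580 CPM in ctrl diestrus and 271 to 2610 CPM in FL1 diestrus. In diestrus the lines overlapped and edgeR called none of the 5, of which 3 had an unadjusted p below 0.05, while DESeq2 called Ptgfr and limma-voom called none. Of all genes in diestrus, 0.248% were called by edgeR and 5.56% had an unadjusted p below 0.05. With no filter edgeR called Akr1c18, Ptgfr and Sfrp4 in diestrus. All 4 erythroid markers tested were positive (median 1.16) with unadjusted p-values below 0.05 and no call by edgeR with the filter, and their sum ran from 47.7 to 352 CPM in ctrl diestrus and from 137 to 1610 CPM in FL1 diestrus. With no filter edgeR called Hba-a1 and Hbb-bs over both stages and Hbb-bs and Hbb-bt in diestrus. Of the endothelial markers all 8 tested were positive (median 0.87), 1 had an unadjusted p below 0.05 and none was called. Of the stromal markers 8 of 10 were positive (median 0.51), 4 with an unadjusted p below 0.05 and none called. The theca markers (0 of 3 positive, median -0.36), the oocyte markers (5 of 7 positive, median 0.19, 1 unadjusted p below 0.05) and the granulosa markers (6 of 12 positive, median -0.03) had no call. Of the granulosa markers 1 was higher and 2 were lower in FL1 mice with an unadjusted p below 0.05. The part of these cells in the values of the 10 members was not tested.

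Of the stromal markers 9 of 9 tested had a negative value in the comparison of the stages in ctrl mice (median -1.24). Of these, 6 had an unadjusted p below 0.05, against 11.8% of all genes, and edgeR called 1, Col3a1, against 1.36%. DESeq2 called Col3a1 and Dcn, limma-voom called Col3a1, and edgeR with no filter called Col1a1, Col3a1, Dcn and Acta2. The summed stromal level was 780 to 1960 CPM in ctrl estrus and 329 to 1160 CPM in ctrl diestrus. In the same comparison edgeR called 2 of 12 granulosa markers higher and 1 lower in diestrus (median 0.42), and 1 of 3 theca markers higher. DESeq2 called 4 granulosa markers higher and 1 lower. The part of stromal, granulosa and theca cells in the lower values of Cd74 and C1qc in ctrl diestrus was not tested.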

How the data were processed

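The authors sequenced 3′ mRNA libraries (QuantSeq, forward kit) of GCs of 20 mice, aligned the reads with STAR to GRCm38 and deposited whole-number read counts per Ensembl gene for each library. The rule by which reads were counted is not given in the sources used here. Of 55487 identifiers, 55227 were paired with a symbol of GENCODE M21. Rows for unmapped, multimapping, ambiguous and intergenic reads were left out of the library sizes and of the tests. The paper names no molecular identifiers, so that the count is taken as one of reads, not of molecules.

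Counts were analysed with edgeR 4.0.16 in R 4.3.3 (TMM factors, quasi-likelihood F test). Genes were kept by filterByExpr, with its count threshold set to 10, its total to 15 and its share of samples to 0.7. P-values were adjusted by the Benjamini-Hochberg method over all genes tested, and a gene was called at an adjusted p of 0.05 or less. Only the samples of the 2 groups compared entered a fit within a stage or a line. The study compared the lines with DESeq2, which was an alternative here (version 1.42.0), beside limma-voom with sample weights (limma 3.58.1), RLE size factors, no filter, a robust fit, 1 fit of all 20 samples, a block of the replicate number and the omission of each mouse. Correlations used log2 CPM with a prior count of 2 and 100000 permutations, two-sided. The scripts were tested on simulated data. Transcript ends of 500 bases were compared by BLAST 2.17.0 (at least 90% identity over 100 bases).

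The members and the gene lists were chosen with earlier results of these data known. All 10 members are named. Of every other list the genes called and the 3 with the highest mean level could be named, and a few of them are not reported here. The 5 samples of a group came from separate mice.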

Additional observations from a re-analysis of the deposited data

Results flagged for a closer look

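Single mice that stood apart from the other 4 of their group were found by Dixon's test for 4 of the 40 combinations of member and group. Chance gives about 1 in 20 for normally distributed values, and CPM from low counts with many at 0 need not follow that rate. H2-Eb1 was at 1.30 CPM (9 counts) in replicate 1 of ctrl estrus, while the next mouse had 9.31 CPM. C1qc was at 16.5 CPM in replicate 1 of FL1 diestrus, and the next mouse had 6.09 CPM. Ptprc was at 3.04 CPM (21 counts) in replicate 1 of ctrl estrus and at 0 in the other 4 mice. Adgre1 was at 0.533 CPM (4 counts) in replicate 5 of ctrl diestrus and at 0 in the other 4. For Ptprc and Adgre1, where the other 4 mice were at 0, the gap equals the whole range for any value above 0, so that the test holds no information there, and 4 counts of Adgre1 are barely above the 3 that a count of 0 allows.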

How the results depend on the processing

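Of 1132 values of the log2 fold changes of members under the alternatives, 1084 kept direction and call, 7 (Lyz2 within a stage) became called and 41, in 12 results, changed sign; no sign change concerned a called value. Of the 56 values from DESeq2, 11 had no adjusted p, and only their direction counts here. In estrus 1 member, Lyz2, was called with DESeq2, limma-voom and no filter (range 0 to 1 when a mouse was left out), and in diestrus 1 with DESeq2 and no filter. The cause was not tested. With limma-voom the sign changed for C1qb in estrus (0.17), diestrus (-1.01) and over both stages (-0.16), H2-Eb1 in diestrus (-0.22), Adgre1 between stages in FL1 mice (-0.86) and the interactions of Lyz2 (-0.68), C1qa (-0.13) and C1qb (-1.29). H2-Eb1 in diestrus was -0.0057 with no filter and -0.0059 in 1 fit of all 20 samples. Leaving out single mice gave ranges that crossed 0 for C1qb (-0.41 to 0.19 in estrus, -0.39 to 1.33 in diestrus, -0.24 to 0.55 over both stages), H2-Eb1 (-0.54 to 0.26 in diestrus, -0.91 to 0.049 between stages in FL1 mice), H2-Ab1 between stages in ctrl mice (-0.16 to 0.47) and Adgre1 between stages in FL1 mice (-0.14 to 0.98). The interactions ranged from -0.47 to 0.88 for H2-Aa, from -0.35 to 0.50 for Lyz2, from -0.32 to 0.67 for C1qa, from -0.30 to 1.43 for C1qb and from -3.34 to 2.36 for Ptprc. With group means removed the correlated pairs went from 9 to 1.

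The replicate number did not pair the mice: the correlations of same-numbered samples lay between -0.166 and 0.117, and 1 of 30 exceeded 0.1. With a replicate block the number of members called was 0 in estrus, 0 in diestrus and 1 over both stages, as without it, and the signs changed for H2-Eb1 (-0.20) and C1qb (-0.084) in diestrus and for the interactions of Lyz2 (-0.093), C1qa (-0.025) and Ptprc (-0.098). Over all genes, the calls were 100 in estrus and 32 in diestrus, against 310 and 86 with DESeq2, 373 in estrus and 55 higher plus 52 lower in diestrus with no filter, and 58 and 13 with the replicate block. Over both stages they were 162, 371 with DESeq2, 264 with limma-voom and 319 with no filter. Between stages they were 175 in ctrl mice (423 with DESeq2, 348 with no filter) and 29 in FL1 mice (225 with DESeq2, 130 with limma-voom, 299 with no filter, 65 in 1 fit of all samples), and the interaction had 6 with no filter. Leaving out 1 mouse moved these counts to 66 to 130 in estrus (66 without FL1 estrus replicate 1), 21 to 32 in diestrus (21 without FL1 diestrus replicate 4) and 131 to 186 over both stages. Between stages the count in ctrl mice was 77 to 176, with the lowest without ctrl diestrus replicate 5, 88 and 91 without ctrl estrus replicates 2 and 3, and lower by over 1.5 times also without ctrl estrus replicate 4 or ctrl diestrus replicate 3. In FL1 mice it was 178 without FL1 diestrus replicate 1, 18 without replicate 2, 13 without replicate 3 and 14 without replicate 4 or 5 of that group, so that the share of genes called there rests on single mice. Ptprc in estrus, Adgre1 in diestrus and both between stages in ctrl mice had too few counts for a test with the filter.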

Other observations

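Genes whose level followed H2-Aa from mouse to mouse within groups were not those of the class II chains. Among 14937 genes ranked by Pearson r of log2 CPM with the group means removed, Kdr, the VEGF receptor of endothelium, came first (r = 0.864), followed by Ppp2r5d (0.855), Ei24 (0.853), Pcbd2 (0.826), Jcad (0.817), Dkk3 (0.817), Rab1b (0.811), Lgals9 (0.807), Uhrf1 (0.805) and Cd74 (0.804, rank 10). C1qc was at rank 56, C1qa at rank 118, Lyz2 at rank 1103, H2-Ab1 at rank 5466 and H2-Eb1 at rank 8446. For Lyz2 the first 10 genes were Igfbp4 (0.80), Gm36189 (0.775), Nags (0.773), Pctp (0.763), Med21 (0.753), Tomm20 (0.746), Zfp119b (0.745), Osr2 (0.732), Rarres2 (0.730) and Chaf1b (0.728), and C1qc (0.527) was the member with the best rank, 252. These values are a description over 20 mice, the points share their libraries and depth, and genes ranked by the highest of many correlations were chosen for that value.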
